A study of Bos taurus with 60 samples.

Results

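The data described here are the paired mammary biopsies of cooled (CL) cows at D3 and D7 after dry-off, the end of milking before the next calving. The libraries were chosen by their labels alone, as those of CL cows at D3 or D7, which gave 12 of the 60 libraries of the series. They came from 6 cows, and each cow gave 1 library at each day, so each cow was its own control. The study followed multiparous Holstein cows that were dried off 46 days before expected calving and kept either with cooling or under heat stress, and took biopsies 3 days before dry-off (D-3) and on 4 days after it (D3, D7, D14, D25). CL cows had shade, fans and soakers from dry-off onward, so both groups compared here carried the same treatment and differed by the day. No library of a heat-stressed cow entered any value below. The biopsies came from alternating glands of the udder, visible fat was trimmed away, and the tissue was not sorted by cell type. Day and biopsy order cannot be told apart, since D7 always followed D3.

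Involution is the return of the milk-secreting gland to a resting state. In rodents, milk stasis brings on LIF and STAT3 signalling, death and shedding of alveolar cells, and remodelling of the matrix. In the cow the alveoli are largely kept and secretory cells are replaced by new ones, so that loss of function and cell division overlap in the dry period. D3 and D7 both lie in active involution, and the question this comparison addresses is what differs in the gland between its start and the end of the first week.

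Total counts of reads on loci ranged from 21369890 to 26044014 over the 12 libraries. The D3 libraries of cows 8564 and 8647 stood apart from the other 4 D3 libraries, with TMM scaling factors of 0.739 and 0.809 where the other 10 libraries had 0.99 to 1.10. In these same libraries 5.58% and 6.31% of all counts lay on CSN1S1, CSN2 and LALBA, which encode 2 caseins and alpha-lactalbumin, against 0.00982 to 1.01% in the other D3 libraries and 0.0628 to 1.96% at D7. Cow 8686 differed least between the days, with 2.12% of loci more than 2-fold apart, against 4.76 to 5.83% in cows 7965, 8060 and 8603 and 16.6 to 19.4% in cows 8647 and 8564. Of the other days, which serve here only as a frame, the D-3 libraries split into 3 cows with 40.2 to 44.4% of counts on the 3 milk genes (7965, 8564 and 8647) and 3 cows with 0.19 to 0.569% although all 6 cows were still to be dried off at D-3. The D14 library of cow 7965 held 11.5 CPM over 3 luminal epithelial markers (KRT19, GATA3 and the KRT7 locus), against 674 to 1303 CPM in the other D14 libraries.

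A locus was tested if it reached 1 CPM (read counts scaled by library size) in at least 6 of the 12 libraries, which left 13786 loci, and D7 was compared with D3 in edgeR's quasi-likelihood test with the cow as a block. No locus reached a false discovery rate (FDR) of 0.05. The smallest FDR was 0.0526, for BHLHE40. At an unadjusted p under 0.05 there were 2414 loci (17.5% of those tested), 1086 higher at D7 (7.88%) and 1328 lower (9.63%), and DESeq2 called 446 higher (3.24%) and 597 lower (4.33%) at an FDR of 0.05. The study also had a less stringent threshold, which it used for heat-stressed against cooled cows and not between days. It asks for p no larger than 0.005 before adjustment and a log2 difference of 0.5 or more either way. Here it was passed by 449 loci (3.26%), 206 higher (1.49%) and 243 lower (1.76%). Without cow 8686, 181 loci reached the FDR, 89 higher and 92 lower. With tagwise in place of trended dispersions 1325 did, 576 higher and 749 lower. The methods of the study name tagwise dispersions, so the main fit here differs from them in this setting. Scaled by library size alone, the less stringent threshold gave 248 higher and 150 lower, and that scaling put the median of all loci at 0.15 on the log2 scale against 0.01. The less stringent counts of higher and lower loci were 103 and 177 without cow 7965, 134 and 143 without cow 8060, 101 and 150 without cow 8564, and 96 and 137 without cow 8603. All differences below are therefore given as values, with the number of cows that showed each direction, and a gene described as higher or lower did not pass the FDR. An exact sign-flip test of 6 paired differences has 64 arrangements of signs and cannot give a p below 0.03125, which is what each gene that differed alike in all 6 cows reached.

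Gene symbols were available for 2898 of the tested loci, those that the study listed for its comparisons over all its cows, these 6 included. The loci with a symbol passed the less stringent threshold far more often (12.1%) than those without one (0.909%). The counts of named genes below are thus no independent evidence of a direction. Of the gene lists used below, only members with such a symbol that passed the filter could be tested. These were 52 of 62 listed genes for mitosis, 17 of 41 for replication and 40 of 62 for actin and adhesion. For junctions and keratins they were 12 of 34, for matrix 9 of 45 and for mucosal defence 7 of 37. For milk proteins and lactose synthesis they were 11 of 19, for milk fat 20 of 32 and for sterol synthesis 14 of 21. For involution signalling they were 16 of 42 and for lysosome and autophagy 14 of 39. Of the loci with a symbol 42.4% had a higher and 57.6% a lower estimate, against 51.9% and 48.1% of all tested loci.

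The 5 loci with a symbol and the smallest p, among those higher at D7 in 6 of 6 cows, were STAC2, BCHE, NUDT4, APLN and MSTN. MSTN encodes myostatin, a secreted TGF-beta family member that restrains muscle growth. Its level ranged from 0.738 to 10.5 CPM at D3 (median 3.58) and from 6.83 to 24.3 CPM at D7 (median 20.4), a log2 fold change of 2.2 ± 0.34 (SE from the fit of 6 cows, FDR 0.0791). The D3 and D7 ranges of MSTN overlapped, but the paired differences were all above 1.08 on the log2 scale. APLN, which encodes the vascular peptide apelin, ranged from 1.95 to 3.08 CPM at D3 in 5 cows and stood at 27.6 CPM in cow 8686. At D7 it ranged from 10.8 to 18.7 CPM in those 5 cows and was 38.4 CPM in cow 8686, which gave a log2 fold change of 2.13 ± 0.31 (FDR 0.0791). Without cow 8686 the D3 and D7 values of APLN did not overlap.

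BCHE, which encodes butyrylcholinesterase, went from 0.26 to 5.47 CPM at D3 (median 1.53) to 0.724 to 15.8 CPM at D7 (median 5.37), a log2 fold change of 1.96 ± 0.27 (FDR 0.0791). Cow 8564 was lowest in BCHE at both days, and the ranges overlapped. STAC2, an adaptor protein of voltage-gated calcium channels, was measured at 0.178 to 3.28 CPM at D3 and at 0.416 to 14.3 CPM at D7, with a log2 fold change of 1.91 ± 0.25 (FDR 0.0791). In cows 8060 and 8686 STAC2 stayed below 1 CPM at both days. NUDT4, a diphosphoinositol polyphosphate phosphatase, had the smallest difference of the 5, from a median of 68.2 CPM (48.4 to 90.9) to a median of 100.2 CPM (63.8 to 136), a log2 fold change of 0.56 ± 0.08 (FDR 0.0791) with within-cow differences between 0.40 and 0.78.

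The 5 loci with a symbol and the smallest p, among those lower at D7 in 6 of 6 cows, were BHLHE40, MGLL, ITGB6, SOD2 and a locus that joins EFNA1 with SLC50A1. BHLHE40, a transcriptional repressor of the clock and hypoxia responses, ranged from 86.4 to 391 CPM at D3 (median 232) and from 52.7 to 184 CPM at D7 (median 126). Its log2 fold change was -0.91 ± 0.09 (FDR 0.0526), and the 6 cows lay close together, between -1.09 and -0.71. The ranges overlapped, with cow 8564 highest and cow 8686 lowest at both days. MGLL, monoglyceride lipase, which releases fatty acids from monoglycerides, stood at a median of 76.0 CPM at D3 (35 to 292) and of 26.1 CPM at D7 (20.4 to 105), a log2 fold change of -1.36 ± 0.17 (FDR 0.0791).

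ITGB6, the epithelial integrin subunit that binds latent TGF-beta, ranged from 98.5 to 809 CPM at D3 (median 443) and from 71.9 to 315 CPM at D7 (median 180.3). Its log2 fold change was -1.27 ± 0.17 (FDR 0.0791), smallest in size in cow 8686 at -0.45. SOD2, the mitochondrial superoxide dismutase, went from a median of 148 CPM (62.5 to 340.4) to a median of 78.8 CPM (27.1 to 208), with a log2 fold change of -1.10 ± 0.15 (FDR 0.0791). The joined locus of EFNA1, an ephrin ligand, and SLC50A1, a sugar transporter, had 28.7 to 125 CPM at D3 and 16.7 to 50.6 CPM at D7, a log2 fold change of -0.99 ± 0.13 (FDR 0.0791). Its reads cannot be divided between the 2 genes. Of the loci without a symbol, XLOC_023585 (0.81 ± 0.10) and XLOC_016392 (0.98 ± 0.16) were higher and XLOC_021960 (-1.57 ± 0.22) and XLOC_017885 (-0.78 ± 0.11) lower on the log2 scale, each in 6 of 6 cows.

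**Figure D1:**
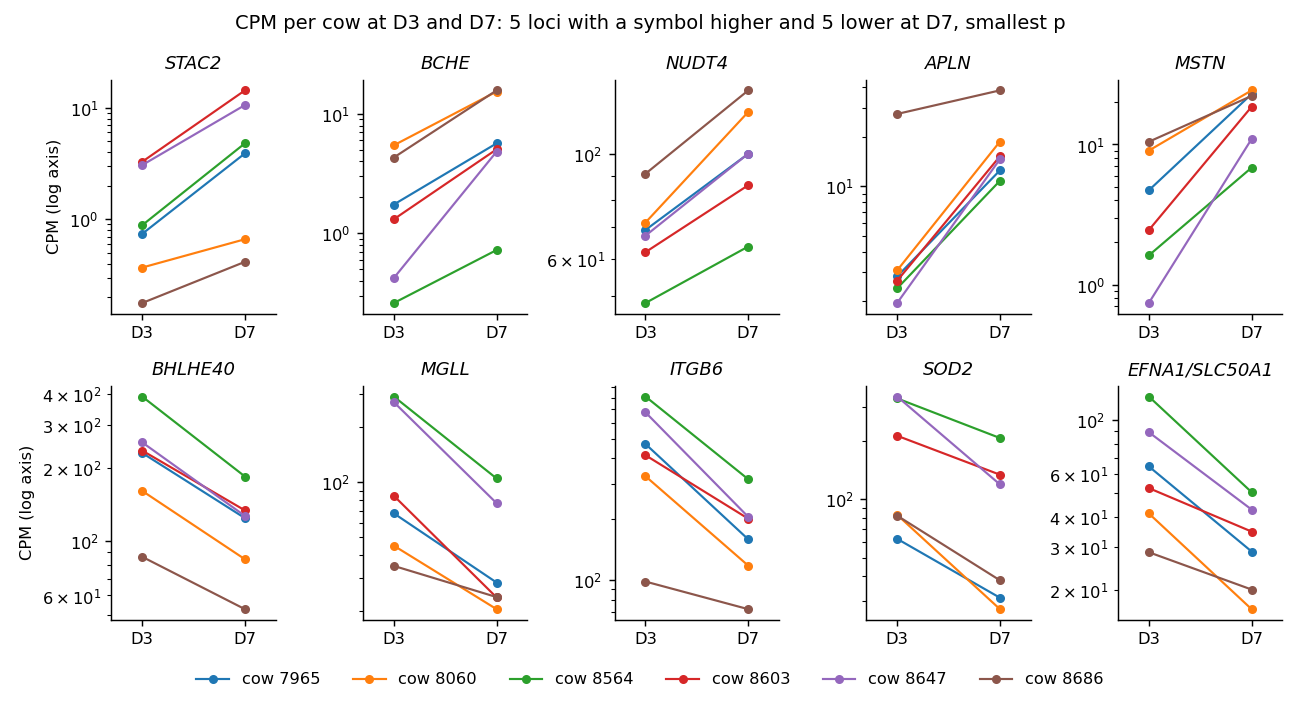
Level in CPM on a log axis at D3 and D7, with 1 line per CL cow, of the 5 loci higher (top) and the 5 lower (bottom) at D7 with the smallest p among the loci with a symbol that differed alike in 6 of 6 cows. Every line in a panel runs the same way, cow 8686 stands apart in APLN at D3 with 27.6 CPM, and the lines of BHLHE40 are nearly parallel.

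Genes of mitosis and chromosome segregation were higher at D7 as a group. These genes build the spindle, condense and part the chromosomes and divide the cell, and their RNA is found mostly in dividing cells. Of 52 members tested, 51 had a higher estimate at D7 (51.9% of all tested loci and 42.4% of those with a symbol had one), 43 were higher in 6 of 6 cows where 5.16% of all tested loci and 11.5% of those with a symbol were, and the median log2 fold change was 1.17 against 0.01 for all tested loci. The less stringent threshold was passed by 38 members, all higher (5.9% of loci with a symbol), and DESeq2 called 50. The exception in direction was the locus that joins NCAPH with ITPRIPL1, at -0.23. The count of 38 was smaller in several fits that left out cows, as was the count over all tested loci. It was 20 without cow 7965, 23 without cow 8564 and 21 without cow 8603. Without cows 8564 and 8647 together it was 20. Each time 51 of 52 stayed higher. Over all tested loci the higher count of 206 fell to 103, 101, 96 and 129 in these fits, in the same order.

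KIF20A, a kinesin of the central spindle, had the largest estimate of the list. It stood at 6.41 to 18.0 CPM at D3 (median 8.36) and at 17.2 to 43.1 CPM at D7 (median 29.3), a log2 fold change of 1.54 ± 0.27 (FDR 0.0884). The largest difference was in cow 8060, from 6.41 to 43.1 CPM, and the smallest in cow 8686, from 18.0 to 23.5 CPM. PTTG1, securin, which guards sister chromatids until anaphase, went from 2.48 to 5.83 CPM at D3 to 5.70 to 15.4 CPM at D7 (1.31 ± 0.24 on the log2 scale, FDR 0.0884), and only the D7 value of cow 8564 (5.70 CPM) lay below a D3 value, that of cow 8686 (5.83 CPM). SGOL1, shugoshin, which protects centromeric cohesion, did not overlap between the days, with a highest D3 value of 3.83 CPM and a lowest D7 value of 4.25 CPM (1.32 ± 0.23, FDR 0.0884). PRC1, which bundles microtubules at the midzone, had a median of 10.4 CPM at D3 (7.67 to 19.2) and of 20.9 CPM at D7 (12.7 to 37.8), a log2 fold change of 0.96 ± 0.16 (FDR 0.0813).

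Regulators and markers that are members of this list were higher on the log2 scale as well. FOXM1, the transcription factor of G2 and M phase genes, was at 1.27, the cyclin CCNB1 at 1.43 and the kinase CDK1 at 0.85. TOP2A was at 1.27 and MKI67, the Ki-67 antigen, at 1.07. Each of these was higher in 6 of 6 cows, whereas MYBL2 (0.76) and CCNB2 (0.96) were higher in 5 of 6. Summed over the 52 members, the list took 475 to 1025 CPM at D3 (median 629) and 901 to 1920.2 CPM at D7 (median 1183), and the sum was higher at D7 in 6 of 6 cows. Cows differed in size. The median difference over members was 2.28 on the log2 scale in cow 8060, 1.2 in cow 7965, 1.14 in cow 8564, 1.04 in cow 8603, 0.81 in cow 8647 and 0.17 in cow 8686. Cow 8686 had the highest sum at D3 (1025 CPM) and differed least.

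S phase and DNA replication genes were higher too, with smaller and less even differences. Of 41 listed genes 17 could be tested, and all 17 had a higher estimate at D7 (42.4% of loci with a symbol had one). The median log2 fold change was 0.76, with a range of 0.24 to 1.3. Only 4 were higher in 6 of 6 cows (5.16% of all tested loci and 11.5% of those with a symbol were). The less stringent threshold was passed by 3 (1.49% of all tested loci and 5.9% of those with a symbol passed it). Those 3 were BRCA1, CDC45 and E2F7. Leaving out a cow gave 0 (without cow 7965, 8564 or 8603), 1 (without cow 8060 or 8647) or 10 (without cow 8686). The higher count over all tested loci, 206 with all cows, moved likewise. It was 307 without cow 8686 and 96 to 145 without any other single cow. BRCA1, which acts in DNA repair at replication forks, went from a median of 15.6 CPM (10 to 27.1) to 29.8 CPM (18.2 to 41.2), a log2 fold change of 0.78 ± 0.17 (FDR 0.104). CDC45, part of the replicative helicase, stood at 8.95 to 20.1 CPM at D3 and 18.0 to 28.9 CPM at D7 (0.70 ± 0.18, FDR 0.124), and CCNE1, the cyclin of S phase entry, at 2.57 to 6.72 and 5.42 to 7.17 CPM (0.65 ± 0.19, FDR 0.15). In cow 8686 the median of the list was -0.21, with 4 of 17 members higher, whereas the other 5 cows had medians of 0.24 to 1.33.

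Genes of the actin cytoskeleton, focal adhesion and adherens junction were lower at D7. These genes hold epithelial cells to each other and to the basement membrane and drive contraction. All 40 tested members had a lower estimate (48.1% of all tested loci and 57.6% of those with a symbol had one), 26 were lower in 6 of 6 cows where 6.23% of all tested loci and 16.4% of those with a symbol were, and the median log2 fold change was -0.50 with a range of -1.33 to -0.20. The less stringent threshold was passed by 9 members (6.18% of loci with a symbol passed it in this direction). It was passed by 5 without cow 7965 and by 4 without cows 8564 and 8647, and the fit without those 2 cows left 39 of 40 lower. Over all tested loci the lower count of 243 fell to 177 and 149 in these fits. Beside ITGB6, members with a small p included ZYX and MYL9.

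ZYX, the focal adhesion protein zyxin, had medians of 201 CPM (121 to 436) and 143 CPM (99.0 to 197), at -0.62 ± 0.13 (FDR 0.0988). MYL9, a myosin light chain of smooth muscle and myoepithelium, had medians of 239 CPM (119 to 486) and 135 CPM (92.5 to 199), at -0.92 ± 0.19 (FDR 0.0999). The actins themselves were lower too, ACTB by -0.52 and the ACTG1 locus by -0.64 on the log2 scale, both in 6 of 6 cows, and the matrix protein THBS1 was at -1.33. The median over members was lower at D7 in every cow, from -0.13 in cow 8686 and -0.30 in cow 7965 to -1.14 in cow 8564.

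The markers of basal and myoepithelial cells, the contractile outer layer of the alveolus, moved in the same direction. All 6 tested markers were lower at D7 (57.6% of loci with a symbol were), with a median log2 fold change of -1.24. Their summed level was 1243 to 5189 CPM at D3 (median 2979) and 1026 to 1887 CPM at D7 (median 1429), lower in 6 of 6 cows. KRT17 went from a median of 253 CPM (115 to 634) to 97.7 CPM (73.2 to 136), a log2 fold change of -1.40 ± 0.24 (FDR 0.0863). The basal keratin KRT5 was at -1.10 ± 0.24 (FDR 0.101), the smooth muscle actin ACTA2 at -1.09 ± 0.26 (FDR 0.111), CNN1 at -1.85 ± 0.35 (FDR 0.0887), TAGLN at -1.38 ± 0.24 (FDR 0.0884) and MYLK at -0.57 ± 0.19 (FDR 0.182). MYLK is a member of both lists, and the part of these markers in the actin and adhesion values was not tested. In unsorted tissue fewer cells of a type and less RNA per cell cannot be told apart.

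Tight junction proteins and keratins, which seal the luminal epithelium and frame its cells, were lower in the same biopsies. All 12 tested members had a lower estimate at D7 (57.6% of loci with a symbol had one), with a median log2 fold change of -0.81. In 6 of 6 cows 7 were lower (6.23% of all tested loci and 16.4% of those with a symbol were). KRT80, a keratin linked to cell junctions, had the largest difference. It stood at 1.91 to 75.4 CPM at D3 (median 16.7) and 1.3 to 6.71 CPM at D7 (median 2.23), a log2 fold change of -2.64 ± 0.51 (FDR 0.0897). In cow 8686 it was already at 1.91 CPM at D3, and in cow 8564 it went from 75.4 to 3.03 CPM, and the within-cow differences ran from -4.60 to -0.53. The claudins CLDN4 (-1.17 ± 0.29, FDR 0.12), CLDN15 (-0.81 ± 0.21, FDR 0.131), CLDN3 (-1.11) and CLDN7 (-0.80) were also lower, while OCLN, occludin, and TJP1, the scaffold ZO-1, lay at -0.32 and -0.21 on the log2 scale and were each higher in 1 cow.

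KRT19, a luminal keratin, had a median of 851 CPM at D3 (569 to 3492) and of 565 CPM at D7 (280.0 to 716), a log2 fold change of -1.05 ± 0.26 (FDR 0.124). Its D3 values were highest in cows 8564 (3492 CPM) and 8647 (1534 CPM), the libraries that stood apart. Without those cows all 12 members of the list were still lower. GATA3, the transcription factor of luminal identity, went the other way, from a median of 84.2 CPM (63.3 to 117) to 108 CPM (90.6 to 162) and higher in 6 of 6 cows (0.42 ± 0.09, FDR 0.0999). Together with the KRT7 locus (-1.10 ± 0.31, FDR 0.144) these 3 luminal markers summed to 1138 to 5710 CPM at D3 (median 1653) and 659 to 1333 CPM at D7 (median 1074), lower at D7 in 6 of 6 cows. The part of the luminal markers in the junction and keratin values was not tested.

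**Figure D2:**
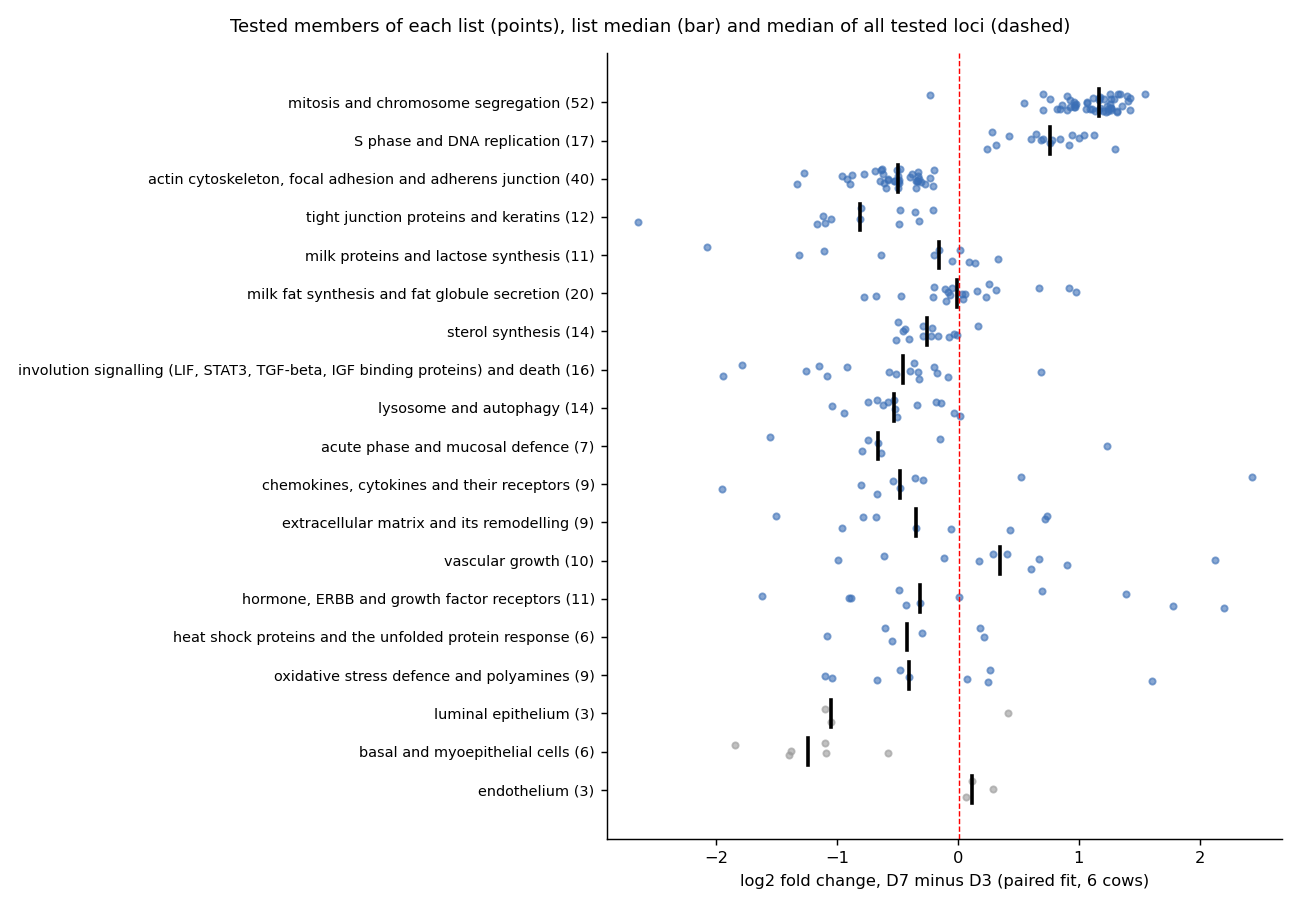
Log2 fold change of D7 over D3 from the paired fit (horizontal axis) for each tested member of the gene lists (blue) and of the marker lists with 3 or more tested markers (grey), with the number of tested members in brackets, the list median as a bar and the median of all tested loci as a dashed line. Mitotic genes centre on 1.17 and replication genes on 0.76, the 40 actin and adhesion genes all lie below 0, and the milk fat list centres near 0.

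The milk synthesis genes that could be tested showed no common difference between D3 and D7 in these cows. CSN1S2, CSN3, PAEP and GLYCAM1 were listed but not tested. CSN1S1, alpha-s1-casein, ranged from 51.9 to 50508 CPM at D3 and from 176 to 7776 CPM at D7. It was higher at D7 in cows 8060 and 8686 and lower in the other 4, so that its log2 fold change of -2.07 had an SE of 1.61 (FDR 0.539). CSN2, beta-casein, and LALBA split by direction in 2 and 4 cows as well. Over the list of milk proteins and lactose synthesis, 4 of 11 members were higher and 7 lower, and without cows 8564 and 8647 the split turned to 8 higher and 3 lower. It was 2 higher and 9 lower without cow 8060 or without cow 8686. PGM1, phosphoglucomutase, changed sign without those 2 cows (-0.16 with all cows). UGDH, which draws UDP-glucose toward glucuronate, was the exception in being lower in 6 of 6 cows, from a median of 198 to 118 CPM (-0.63 ± 0.18, FDR 0.141). HK2, hexokinase 2, differed little (0.33 ± 0.14, FDR 0.281).

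Milk fat genes divided evenly, with 10 of 20 tested members higher and 10 lower and a median of -0.01. The split was 15 higher and 5 lower without cows 8564 and 8647 and with scaling by library size alone, 6 and 14 without cow 7965 or 8060, and 14 and 6 without cow 8647. GPAM, which catalyses the first step of triglyceride synthesis, was higher in 6 of 6 cows, from a median of 208 CPM (138 to 482) to 449 CPM (235 to 791), a log2 fold change of 0.97 ± 0.18 (FDR 0.0884). PLIN2, a coat protein of lipid droplets, was higher in 5 of 6 cows (0.67 ± 0.26, FDR 0.241). ACSS1, a mitochondrial acetyl-CoA synthetase, was lower in 6 of 6 cows (-0.67 ± 0.22, FDR 0.171) and INSIG1, a brake on sterol-sensing transcription, in 5 of 6 (-0.78 ± 0.28, FDR 0.201).

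Sterol synthesis genes leaned lower, with a lower estimate in 13 of 14 tested members (57.6% of loci with a symbol had one) and a median of -0.26. Only 3 were lower in 6 of 6 cows, a share near the 16.4% of loci with a symbol that were. These were HMGCS1 (-0.44 ± 0.13, FDR 0.153), FDFT1 (-0.49 ± 0.16, FDR 0.18) and LSS (-0.29 ± 0.11, FDR 0.236), which make HMG-CoA, squalene and lanosterol. IDI1, the isopentenyl diphosphate isomerase, was at -0.45 ± 0.18 (FDR 0.246). Without cow 8564 the list stood at 5 higher and 9 lower, without cow 8686 at 3 and 11, and without cows 8564 and 8647 at 9 and 5. Cows 8564 and 8647 were those whose D3 libraries held most casein RNA.

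Involution signals were lower at D7 than at D3. LIF, the cytokine that starts STAT3 signalling in the involuting gland, ranged from 2.18 to 38.2 CPM at D3 (median 5.24) and from 0.231 to 6.61 CPM at D7 (median 1.76), a log2 fold change of -1.94 ± 0.29 (FDR 0.0791). Its D3 values were highest in cows 8564 (38.2 CPM) and 8647 (27.2 CPM), and it was lower at D7 in each of the 6 cows, by at least 0.95 on the log2 scale. The death receptor FAS went from a median of 45.1 CPM (18.6 to 51.5) to 18.7 CPM (16.4 to 32.5), at -0.92 ± 0.17 (FDR 0.0884). TNFRSF12A, the receptor of TWEAK, was at -1.79 ± 0.45 (FDR 0.126) and the stress protein NUPR1 at -1.25 ± 0.36 (FDR 0.15). STAT3 itself was at -0.18 and lower in 4 of 6 cows.

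Over the list of involution signalling and death 15 of 16 tested members had a lower estimate (57.6% of loci with a symbol had one), 6 of them in 6 of 6 cows (6.23% of all tested loci and 16.4% of those with a symbol were), with a median of -0.45. IGFBP5, which binds IGF1 and is known from involuting glands, was at -1.08 and lower in 6 of 6 cows. The exception was IGF1 itself, at 0.68 and higher in 6 of 6 cows. The counts by direction held when any 1 cow was left out.

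Lysosome and autophagy genes were lower in 13 of 14 tested cases (57.6% of loci with a symbol were) with a median of -0.52, and 4 were lower in 6 of 6 cows (16.4% of loci with a symbol were). SQSTM1, the autophagy receptor p62, went from a median of 375 CPM (214 to 1147) to 222 CPM (182 to 359), at -0.94 ± 0.22 (FDR 0.107). LAMP1, a lysosomal membrane protein, was at -0.52 ± 0.12 (FDR 0.113), GABARAPL1, of the autophagosome, at -0.75 ± 0.19 (FDR 0.13) and SORT1, a sorting receptor, at -0.53 ± 0.14 (FDR 0.133). In cow 8686 the list did not move with the others, with a median of 0.04 and 8 of 14 members higher. Scaled by library size alone, 11 of 14 were lower.

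**Figure D3:**
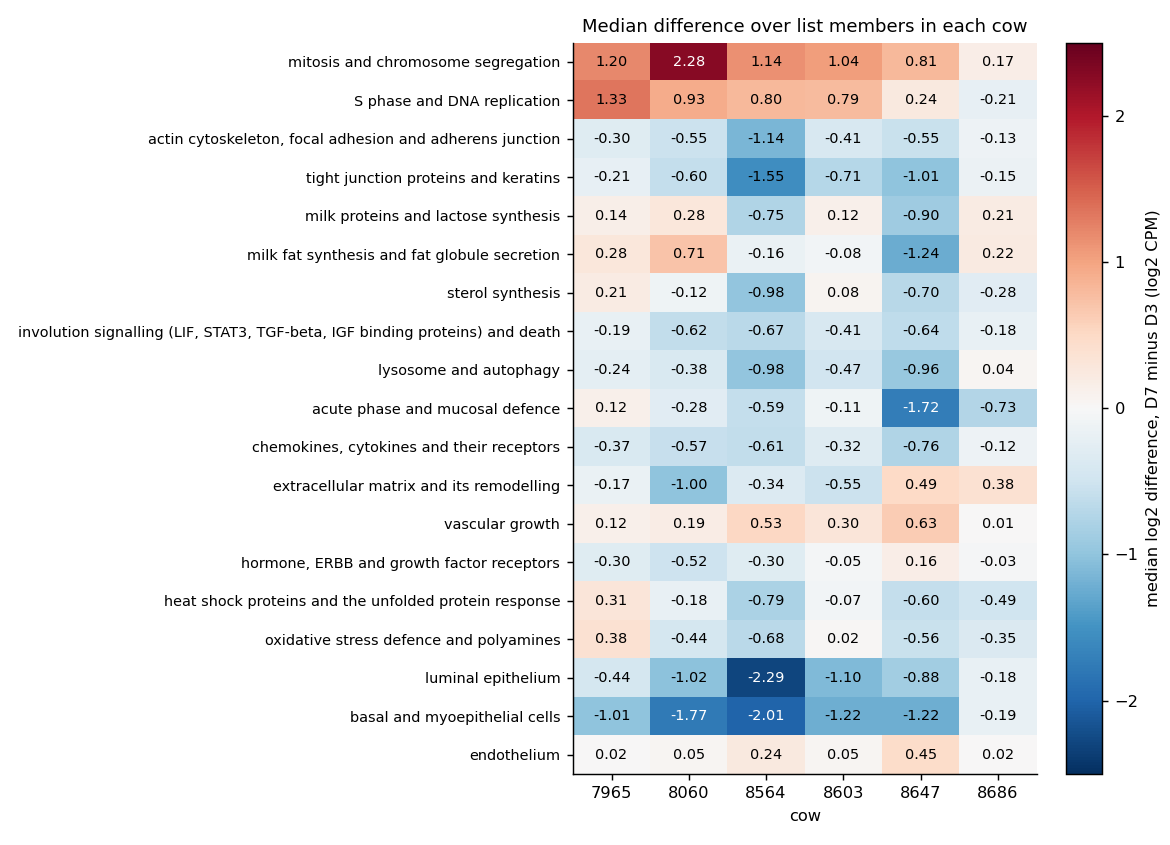
Median over list members of the difference in log2 CPM between D7 and D3 for each cow (columns) and list (rows), from blue (lower at D7) to red (higher). The mitosis row runs from 0.17 in cow 8686 to 2.28 in cow 8060, the actin row is below 0 in all 6 cows, and the milk fat and sterol rows change sign between cows.

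Defence and immune genes had mixed directions. C3, the central complement component, ranged from 571 to 17354 CPM at D3 (median 1994) and from 345 to 3089 CPM at D7 (median 916), a log2 fold change of -1.56 ± 0.40 (FDR 0.13). Its highest D3 values were again in cows 8564 (17354 CPM) and 8647 (11155 CPM), and it was lower at D7 in 6 of 6 cows. The locus that joins the complement genes C2 and CFB was at -0.63 ± 0.13 (FDR 0.099) and S100A2 at -0.66 ± 0.23 (FDR 0.188). PGLYRP1, a bactericidal protein that binds peptidoglycan, went the other way, from a median of 2.14 CPM (1.37 to 9.61) to 6.30 CPM (4.92 to 9.76), at 1.23 ± 0.28 (FDR 0.107). Of the 7 tested members of the mucosal defence list 6 were lower (57.6% of loci with a symbol were), and 4 of 7 without cows 8564 and 8647.

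Among 9 tested cytokines and receptors, of 34 listed, 7 had a lower estimate, where 57.6% of loci with a symbol had one. CSF1, the growth factor of macrophages, went from a median of 78.1 CPM (50.5 to 157) to 51.0 CPM (35.2 to 83.0), at -0.67 ± 0.10 (FDR 0.0791). CXCL16 did not overlap between the days, with a lowest D3 value of 85.2 CPM and a highest D7 value of 74.2 CPM (-0.80 ± 0.14, FDR 0.0884). CXCL17, a mucosal chemokine, went from a median of 10.7 CPM (4.06 to 22.8) to 3.30 CPM (0.543 to 6.72), at -1.95 ± 0.33 (FDR 0.0863). The 2 members with a higher estimate were CXCL12, at 0.52 and higher in 4 of 6 cows, and CXCL13. CXCL13, which draws B cells, went from a median of 1.2 CPM (0.208 to 3.01) to 6.69 CPM (0.694 to 14.6), at 2.43 ± 0.46 (FDR 0.0884) and higher in 6 of 6 cows. Few immune cell markers could be tested, and their log2 estimates were small beside these. They were 1 of 11 listed for T and NK cells (ZAP70, 0.21), 1 of 10 for B and plasma cells (DERL3, 0.33) and 2 of 9 for macrophages (MSR1, -0.10, and AIF1, -0.03). Cows went both ways, with ZAP70 from -0.31 in cow 7965 to 1.24 in cow 8564 and MSR1 from -0.57 in cow 8603 to 0.46 in cow 8564.

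Matrix genes divided, with 3 of 9 tested members higher and 6 lower (42.4% and 57.6% of loci with a symbol were). NID1, nidogen of the basement membrane, did not overlap between the days, with a highest D3 value of 106 CPM and a lowest D7 value of 108 CPM (0.74 ± 0.13, FDR 0.0879). LAMB1, a laminin chain, was at 0.43 ± 0.10 (FDR 0.116) and higher in 6 of 6 cows. The metalloproteinase inhibitors TIMP3, from a median of 269 CPM (114 to 503) to 131 CPM (105 to 172), and TIMP2, from 134 CPM (37.0 to 276) to 72.7 CPM (35.5 to 151), were lower in 6 of 6 cows, at -0.96 ± 0.18 (FDR 0.0884) and -0.78 ± 0.19 (FDR 0.116). DCN, the fibroblast marker decorin, was higher in 5 of 6 cows (0.72 ± 0.26, FDR 0.199), most of all in cow 8647, from 439 to 1815 CPM.

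Of 29 listed vascular growth genes 10 were tested, and 7 of these had a higher estimate, with a median of 0.35. Of all tested loci 51.9% had a higher estimate, and of those with a symbol 42.4%. In cow 8686, 5 of the 10 were higher. Beside APLN, the receptor NRP2 was higher in 6 of 6 cows, from a median of 77.1 CPM (59.3 to 177) to 140.0 CPM (97.2 to 223), at 0.67 ± 0.13 (FDR 0.0897). ANGPT1 (0.90), ANGPT2 (0.41) and VEGFA (0.18) were each higher in 6 of 6 cows, whereas PDGFA (-0.61 ± 0.17, FDR 0.145) and the EFNA1 locus described above (-0.99) were lower in all of them. The receptor FLT1 was at -0.11 and lower in 4 of 6 cows. The endothelial markers KDR (0.29), EMCN (0.11) and ROBO4 (0.07) differed by less than 0.3 on the log2 scale.

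Among hormone and growth factor receptors and their ligands 5 of 11 tested members were higher and 6 lower (42.4% and 57.6% of loci with a symbol were). RET, a receptor of the GDNF family, went from a median of 11.6 CPM (2.49 to 57.2) to 4.26 CPM (1.48 to 9.34), at -1.61 ± 0.30 (FDR 0.0884). ERBB3 had medians of 689 CPM (409.6 to 1155) and 388 CPM (267 to 444), at -0.90 ± 0.20 (FDR 0.107), and ERBB2 medians of 270.3 CPM (197 to 311) and 181 CPM (147 to 238), at -0.48 ± 0.13 (FDR 0.133). These 2 receptors form a signalling pair, and their ligand gene NRG2 was at 1.77 and higher in 5 of 6 cows. NGFR, the low-affinity neurotrophin receptor, was at 1.39 and INHBA at -0.88.

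Of the protein stress genes, CRYAB, a small heat shock protein, was lower in 6 of 6 cows, from a median of 152 CPM (82.2 to 338) to 73.1 CPM (45.1 to 99.7), at -1.09 ± 0.17 (FDR 0.0791). HSPB1 (-0.54 ± 0.20, FDR 0.217), ATF4 (-0.30 ± 0.13, FDR 0.274) and DNAJC12 (-0.60 ± 0.39, FDR 0.465) had lower estimates with smaller or less even differences. Among oxidative stress and polyamine genes, SAT1, which acetylates polyamines, went from a median of 1192 CPM (756 to 3038) to 731 CPM (498 to 796), at -1.04 ± 0.25 (FDR 0.12), and NFE2L2, the regulator NRF2, was at -0.48 ± 0.11 (FDR 0.116). The metallothionein MT1E was higher in 5 of 6 cows, from a median of 2.01 CPM (1.70 to 3.54) to 9.68 CPM (1.62 to 15.7), at 1.61 ± 0.46 (FDR 0.145),, while it was lower in cow 8686. Over these lists 2 of 6 protein stress genes and 4 of 9 redox genes were higher (42.4% of loci with a symbol were).

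**Figure D4:**
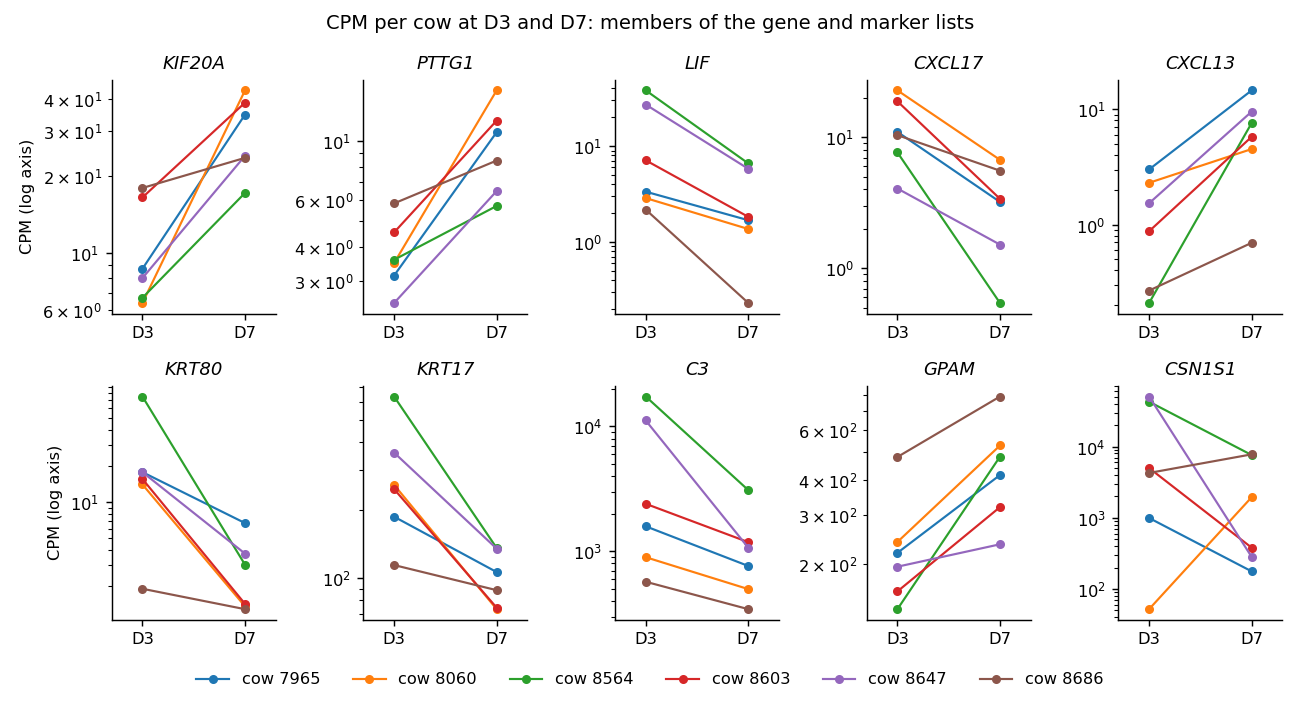
Level in CPM on a log axis at D3 and D7, with 1 line per CL cow, of 10 members of the gene and marker lists. KIF20A, PTTG1, CXCL13 and GPAM are higher at D7 in all 6 cows, LIF, CXCL17, KRT80, KRT17 and C3 lower in all 6, and the lines of CSN1S1 cross, with cows 8060 and 8686 higher and the other 4 lower.

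Adipocyte markers did not share 1 direction, with ADIPOQ at 1.52 ± 0.44 (FDR 0.148) and FABP4 at -0.08 ± 0.31 (FDR 0.916), and visible fat had been trimmed. The skeletal muscle markers paired with a locus, MYH2 and MYH7, did not pass the filter on low counts. No marker of neutrophils, red blood cells or skin keratinocytes could be paired with a locus, so those cell types were not followed.

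The same cows at the other days placed D3 and D7 within the dry period. How many of all tested loci peaked on each day was not counted, so the counts by day below have no background share. Symbols came from the study's own comparisons, these cows included, so these counts are no independent evidence of a peak. By the mean of log2 CPM over the 6 cows, 49 of 52 mitotic genes had their highest of 5 days at D7 and 48 their lowest at D-3. Single cows differed in this, since the mean over the list peaked at D7 in cows 8060, 8564 and 8686, at D14 in cow 7965 (4.55 against 4.18 at D7) and cow 8647 (4.29 against 4.01), and at D-3 in cow 8603 (4.60 against 4.55). That mean was lowest at D3 in cow 8060 (2.74 against 2.77 at D-3), at D14 in cow 8603 (3.26) and at D-3 in the other cows. All 40 actin and adhesion genes, all 12 junction and keratin genes, all 6 myoepithelial markers and 14 of 16 involution signalling genes had their highest level at D3 by this mean. The mean over each of these 4 lists was highest at D3 in 5 of 6 cows, and in cow 8686 at D-3, with 7.72 against 7.46 for actin and adhesion and 8.06 against 7.22 for the myoepithelial markers. Without cow 7965, whose D14 library stood apart, the first 4 of these counts were the same at 49, 40, 12 and 6, and 15 of 16 involution signalling genes were highest at D3. By the median over cows the counts were 47 for mitosis, 38 for actin and adhesion, 10 for junctions and keratins, 6 for myoepithelial markers and 13 for involution signalling. All 14 sterol genes and 19 of 20 milk fat genes were highest at D-3 by the mean over cows. Single cows differed here too. The mean over the milk fat list was highest at D-3 only in cows 7965, 8564 and 8647, those with abundant casein RNA at D-3. It was highest at D25 in cow 8060 (7.215 against 6.591 at D-3) and cow 8686 (7.604 against 7.043), and at D14 in cow 8603 (7.537 against 6.843). The sterol mean was highest at D-3 in every cow but 8686 (5.553 against 5.559 at D3).

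Single genes showed where the levels went after D7. In the order D-3, D3, D7, D14 and D25, KIF20A had medians of 4.66, 8.36, 29.3, 20.4 and 15.3 CPM. LIF had medians of 1.08, 5.24, 1.76, 2.80 and 1.36 CPM over the same days, and KRT80 of 2.04, 16.7, 2.23, 2.5 and 1.81 CPM. MSTN stood at 12.1, 3.58, 20.4, 16.1 and 16.2 CPM and APLN at 18.0, 2.75, 14.9, 17.7 and 20 CPM, so both were lowest at D3. CSN1S1 had medians of 221023, 4628, 1163, 1761 and 1693 CPM, the first of them over 3 cows with abundant and 3 with little casein RNA.

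**Figure D5:**
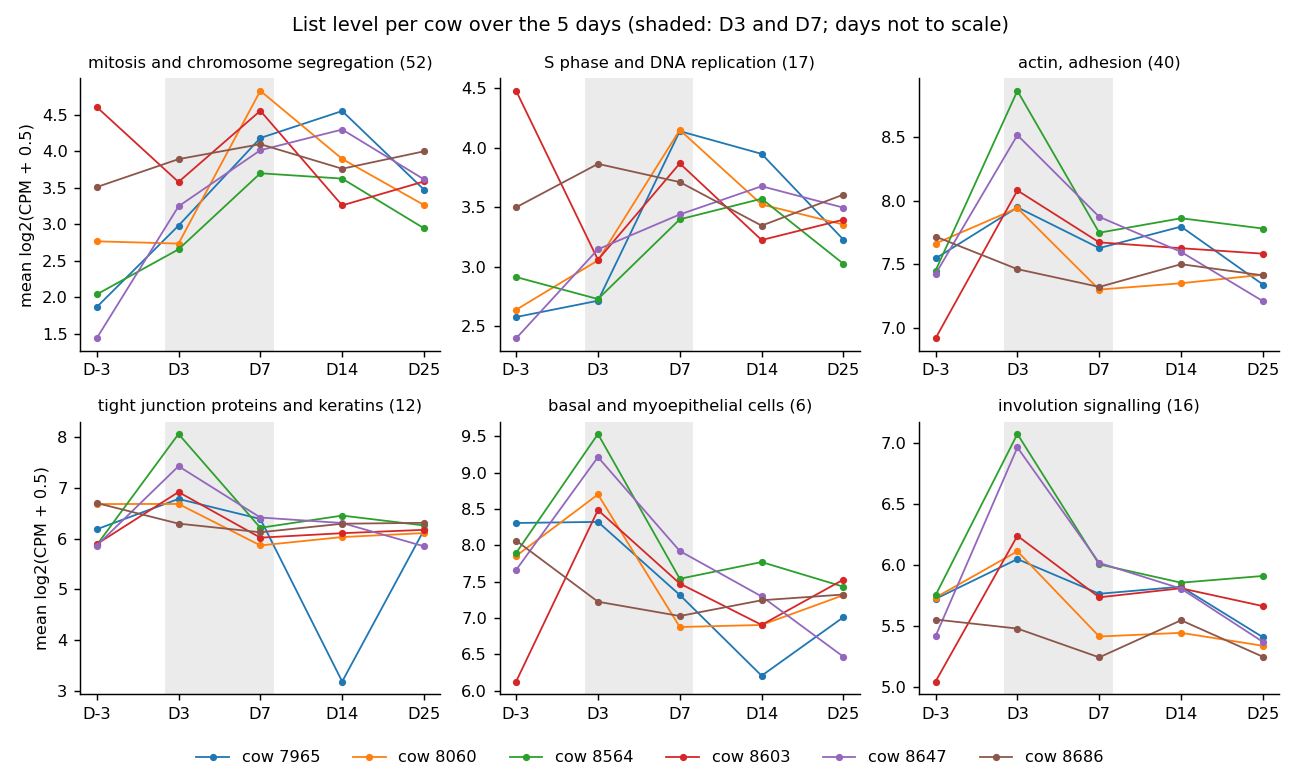
Mean over list members of log2(CPM + 0.5) for each CL cow over the 5 sampled days (evenly spaced, D3 and D7 shaded) in 6 lists, with the number of tested members in brackets. The mitosis list is higher at D7 than at D3 in all 6 cows, the actin, junction, myoepithelial and involution lists are higher at D3 than at D7 in all 6, and the D14 library of cow 7965 drops in the junction list.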

How the data were processed

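Mammary biopsies were sequenced as poly(A) RNA. Per the labels and the methods of the study, the authors trimmed reads with Trim Galore 0.4.1, mapped them with TopHat2 2.0.13, assembled and merged transcripts with Cufflinks 2.2.1 and counted unique reads with HTSeq. The methods name the bosTau7 build and the submitters' processing notes UMD3.1, so no coordinates are given. The authors deposited raw counts per locus, 26073 entries for 25223 loci, of which 742 join several genes and were counted once. The libraries of the 6 CL cows were used. Those of heat-stressed cows were not.

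Counts were scaled by TMM and tested in edgeR 4.0.16 (R 4.3.3) with the quasi-likelihood F-test, trended dispersions and the cow as a block. The test covered 13786 loci with at least 1 CPM in 6 of 12 libraries, with Benjamini-Hochberg adjustment (FDR at most 0.05). The study named tagwise dispersions, which were run here as an alternative. Differences within a cow are in log2 CPM with a prior count of 2. A fold change of D7 over D3 is given with an SE from the fit, its size divided by the square root of the F statistic. This SE is not the SE of the 6 within-cow differences. CPM of all 30 CL libraries use the same scaling and are not adjusted for length, so levels are compared within a gene only. Pairing comes from the animal numbers in the labels. Deviations of both libraries of a cow from the day means correlated at 0.256 to 0.685 across loci, highest with its own partner in 5 of 6 cows. No pair of the 12 libraries held identical counts. A cow is 1 biopsy per day, and depth adds counting error only.

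Symbols came from supplementary tables of the study held in part (3033 loci). RefSeq gene synonyms were used to match symbols of the lists. The 16 gene lists and 12 marker lists, the comparison and the rule for naming genes were chosen with earlier results of these data known. The rule took the loci with FDR at most 0.05 that differed alike in 6 of 6 cows and, since none did, the 5 with a symbol and the smallest p in each direction with a mean of at least 1 CPM, 2 loci without symbol in each direction, up to 4 members of each list with the smallest p, and all markers. A gene that met this rule is not reported here. Other genes given with a value only were chosen after their values were seen. Alternatives were RLE factors, library size only, TMM without milk protein genes, DESeq2 1.42.0, no filter and a stricter one, no block, the newer edgeR method, tagwise dispersions, all 30 CL libraries and each cow left out. Leaving out cows 8564 and 8647 and an FDR of 0.10 were added after seeing the data. The fit was tested on simulated data. Tables used Python 3.11.15, pandas 2.3.3 and numpy 2.4.6. Promoter motifs were not analysed here.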

Additional observations from a re-analysis of the deposited data

Results flagged for a closer look

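APLN (apelin) at D3 had 1 cow far from the others. Its log2 CPM was 4.79 in cow 8686 and 1.03 to 1.66 in the other 5, so the gap to the nearest cow was 0.831 of the whole range, above the value that Dixon's test allows for 6 samples. Of 58 groups of 6 values examined, 1 stood out in this way, and chance alone flags about 1 in 20. Cow 8686 also differed least between D3 and D7 over all loci. The cause was not tested.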

How the results depend on the processing

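With the main settings 0 loci reached an FDR of 0.05. The count stayed at 0 with RLE factors, library size only, TMM without milk protein genes, no replicate block and all 30 CL libraries. It was 1 (lower) with 1 CPM required in all 12 libraries and with the newer quasi-likelihood method, 28 (7 higher, 21 lower) with no filter, 1043 (446 and 597) with DESeq2 and 1325 (576 and 749) with tagwise dispersions. At the less stringent threshold there were 449 (206 and 243) and at an FDR of 0.10 179 (71 and 108). Leaving out each cow gave 0 to 181 loci (0 to 89 higher, 0 to 92 lower), and only the fit without cow 8686 was above 0. The less stringent counts, 206 higher and 243 lower, were 415 and 466 with DESeq2, 474 and 506 with tagwise dispersions, 78 and 152 with all 30 CL libraries, 129 and 149 without cows 8564 and 8647, and 96 to 307 and 137 to 351 without 1 cow. Library size only gave 150 lower, and no filter 367 lower. Without the block on cow they were 107 and 75, the loci at an unadjusted p under 0.05 went from 2414 to 1359 and the smallest FDR from 0.0526 to 0.301. The cause of these differences was not tested. Of 91 named loci, 71 passed the FDR with DESeq2, 73 with tagwise dispersions and 32 without cow 8686. The log2 fold change of PGM1 turned direction, to 0.0573 (FDR 0.799) without cows 8564 and 8647. The direction of named loci with small estimates also depends on the cows kept. FABP4 (-0.08), for example, had within-cow differences from -1.79 in cow 8647 to 1.11 in cow 8060. Depth was alike over the 12 libraries, and loci near the filter, such as STAC2 with 0.178 CPM at D3 in cow 8686, rest on few counts.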

Other observations

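The genes in this section have a symbol and a mean of at least 1 CPM, lie outside the lists, passed the less stringent threshold and differed alike in 6 of 6 cows, and were chosen after their values were seen. There were 120 such loci lower at D7 and 93 higher, and those below are some of the 12 in each direction with the largest differences. MUC20, a membrane mucin, ranged from 1.65 to 188 CPM at D3 (median 20.3) and from 0.622 to 7.42 CPM at D7 (median 1.22), a log2 fold change of -3.63 ± 0.71 (SE, FDR 0.0901). Its median was 16.7 CPM at D-3, 1.21 at D14 and 1.33 at D25. RNF183, a membrane ubiquitin ligase, went from a median of 5.59 CPM (1.69 to 84.6) to 2.43 CPM (0.416 to 6.88), at -2.33 ± 0.37 (FDR 0.0813). PTGES, the inducible prostaglandin E synthase, went from a median of 29.1 CPM (6.12 to 141) to 8.90 CPM (3.57 to 31.7), at -1.57 ± 0.26 (FDR 0.0813). SCNN1G, a subunit of the epithelial sodium channel, stood at 19.1 CPM (2.85 to 101) and 8.56 CPM (1.48 to 35.6), at -1.50 ± 0.31 (FDR 0.0999). GJB5, a connexin, was at -1.77 ± 0.39 (FDR 0.104), AOX2, an aldehyde oxidase, at -1.84 ± 0.36 (FDR 0.0897), and the small GTPase RAB17 of epithelial cells at -1.23 ± 0.27 (FDR 0.103). PTHLH, the parathyroid hormone-like hormone of the lactating gland, had a median of 156 CPM at D-3, 3.84 at D3 and 1.75 at D7 (-1.23 ± 0.25, FDR 0.0921).

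Among loci higher at D7, CRYM, a thyroid hormone binding protein, went from a median of 5.67 CPM (0.364 to 14.1) to 19.1 CPM (7.11 to 25.3), at 2.12 ± 0.54 (FDR 0.129). The small leucine-rich proteoglycans of connective tissue OMD, from a median of 1.02 CPM (0.489 to 1.70) to 2.60 CPM (1.56 to 11), and OGN, from 50.5 CPM (33.6 to 73.8) to 118 CPM (64.4 to 478), were at 1.75 ± 0.41 (FDR 0.112) and 1.38 ± 0.36 (FDR 0.131). The cell cycle genes TICRR, of replication origin firing, and CKAP2, of the spindle, which the lists did not hold, were at 1.41 ± 0.24 (FDR 0.0833) and 1.39 ± 0.25 (FDR 0.0884). TICRR did not overlap between the days, with a highest D3 value of 7.79 CPM and a lowest D7 value of 8.46 CPM. CA11, a carbonic anhydrase-related protein, also did not overlap (highest D3 value 4.98 CPM, lowest D7 value 5.37 CPM), at 1.43 ± 0.32 (FDR 0.107). NCAM2, a cell adhesion molecule, was at 1.59 ± 0.42 (FDR 0.131) and TRIM9, a ubiquitin ligase, at 1.80 ± 0.28 (FDR 0.0791).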
